A study of Mus musculus with 12 samples.

Results

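Lockd, a long noncoding RNA gene just downstream of Cdkn1b, was described together with 9 genes that govern the G1 phase of the cell cycle in mouse Th2 cells labelled WT or cKO, an abbreviation that the labels do not spell out. The 10 genes, of 25700 in the RNA table, were selected on their names around Lockd, whose RNA had stood out as lower in the cKO-labelled libraries. The RNA comparison therefore chose them, and their RNA values are given as a description with no test. Open chromatin was read in other libraries, and its changes at these genes were tested.

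The study measured RNA (RNA-seq) and open chromatin (ATAC-seq, in which a transposase cuts accessible DNA) in T cells titled Th2, with 3 WT and 3 cKO-labelled libraries for each assay. NRF2, the antioxidant transcription factor encoded by Nfe2l2, appears in the title of the series, whose design text speaks of mouse models of allergic asthma. The labels give no strain, age or treatment for either group, do not say what allele cKO stands for, and do not say whether libraries of a group came from separate animals. The p-values then measure the spread between these libraries only.

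Checks of the whole series were few. RNA libraries totalled 6431081 to 7372007 normalized counts, and ATAC depth was 13149952 to 18327127 tags. Peaks took 34.87% to 38.28% of the tags in 5 libraries and 25.22% in WT replicate 2. Nfe2l2 RNA was above its WT level in each cKO-labelled library, at 158 ± 11.4 against 390 ± 63.2 normalized counts (SD, n = 3 each). All 11 T cell markers were above 0 in every library, at 0.349% to 0.365% of the total in WT and 0.344% to 0.388% in cKO-labelled libraries. Of the defining Th2 genes, Gata3 was at 712 ± 37.5 and 720 ± 114, while Il4 and Il5 were near 0, at 3.13 and 7.25 in WT. Il13, a Th2 cytokine gene, had a mean of 810 ± 246 in WT against 385 ± 58.3 in the cKO-labelled group, with no overlap. Markers of B cells, the highest of the other cell types listed, took at most 0.00643%, and none of the listed neutrophil and erythroid markers were in the table. The Y-linked gene Ddx3y ran from 123 to 140 in WT and was listed at 0 in every cKO-labelled library, so the sex of the animals and the genotype cannot be told apart in the RNA values. Sex was not examined in the ATAC libraries, and the same limit may hold for them.

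Cells leave G1 when D-type cyclins (Ccnd2 and Ccnd3 here), with their kinases Cdk4 and Cdk6, and cyclin E (Ccne1) with its kinase phosphorylate the retinoblastoma protein Rb1, which frees E2F factors to switch on genes of DNA synthesis. Cdkn1a (p21), a p53 target, and Cdkn1b (p27), abundant in resting T cells, restrain these kinases, and Cdkn2c (p18) blocks Cdk4 and Cdk6. Lockd is named for its place downstream of Cdkn1b, and its DNA is known as a regulatory element of Cdkn1b in erythroid cells.

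The start sites of Cdkn1b and Lockd are shown because both lay under a tall open region in every ATAC library while Lockd RNA was lower and Cdkn1b RNA overlapped between groups, and that of Cdk4 because it was the one whose open region passed the test under every scaling tried. The windows run from 250 bases before to 50 after the start (RefSeq, GRCm38.p6, the same assembly as mm10) at chr6:134920151-134920450, chr6:134928842-134929141 and chr10:127063285-127063584, all on the plus strand. Capitals mark 3 motifs, on either strand. The first is the CCAAT box, where the factor NF-Y binds. The second is the GC box, GGGCGG, where Sp1 binds. The third is TGACNNNGC, the core of the antioxidant response element that NRF2 binds.
Cdkn1b: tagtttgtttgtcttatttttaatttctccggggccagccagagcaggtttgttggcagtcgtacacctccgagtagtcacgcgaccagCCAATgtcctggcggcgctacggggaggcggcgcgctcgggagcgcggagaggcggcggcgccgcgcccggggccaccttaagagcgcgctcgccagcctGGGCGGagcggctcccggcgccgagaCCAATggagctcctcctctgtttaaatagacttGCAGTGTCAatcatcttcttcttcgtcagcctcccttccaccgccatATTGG
Lockd: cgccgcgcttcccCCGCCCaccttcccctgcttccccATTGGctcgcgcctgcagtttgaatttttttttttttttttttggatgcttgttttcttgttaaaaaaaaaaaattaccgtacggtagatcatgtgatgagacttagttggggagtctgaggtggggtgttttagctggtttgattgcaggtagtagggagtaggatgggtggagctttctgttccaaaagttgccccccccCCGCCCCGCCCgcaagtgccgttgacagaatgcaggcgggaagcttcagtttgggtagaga
Cdk4: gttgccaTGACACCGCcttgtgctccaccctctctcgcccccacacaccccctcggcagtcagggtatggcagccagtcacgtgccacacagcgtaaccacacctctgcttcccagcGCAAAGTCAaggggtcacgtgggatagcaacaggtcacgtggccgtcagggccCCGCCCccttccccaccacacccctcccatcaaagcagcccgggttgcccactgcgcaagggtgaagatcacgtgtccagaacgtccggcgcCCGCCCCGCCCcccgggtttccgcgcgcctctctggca

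The Cdkn1b window held 3 CCAAT matches, the first base of each at -161, -35 and 45 from the start, and 1 GC box. The Lockd window held 1 CCAAT match at -213 and 3 GC boxes, at -237, -11 and -6, the last pair overlapping. Of 32851 promoter windows of the same length, 37.4% held CCAAT and 35.7% a GC box. The antioxidant core matched 2 times in the Cdk4 window, at -243 and -133, once in the Cdkn1b window at -2 and not in that of Lockd. Among the windows not shown, it also matched in 1 of Cdkn1a, at 27, and in 1 of Ccnd3, at -165. Of all windows 12.4% held it. The E2F forms TTTCCCGC, TTTCGCGC, TTTGGCGC and TTTGCCGC, found in 2.26% of all windows, matched none of the 11 windows that the table gives for 8 of the 10 genes. These are matches of letters only. Every one of the 11 windows lay under a region with a peak in all 6 ATAC libraries.

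Lockd RNA was lower in every cKO-labelled library than in any WT library. In normalized counts it was at 561, 612 and 725 in WT, against 203, 314 and 164 in cKO-labelled libraries (gene at chr6:134929092-134951718, mm10). The groups did not overlap, and cKO replicate 2 was nearest to WT. The means were 633 ± 83.9 and 227 ± 77.9 (SD, n = 3 each), 2.79-fold lower, with a log2 change of -1.52 (SE 0.247). Over 14 other settings, each left-out library included, the log2 change ran from -1.78 to -1.31. In bulk RNA, fewer cells that express a gene and less RNA per cell cannot be told apart.

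Cdkn1b, whose end lies 3566 bp before the start of Lockd on the same strand, had overlapping groups. This inhibitor of cyclin E and cyclin A kinases was at 377, 373 and 348 in WT, against 374, 343 and 434 in cKO-labelled libraries, with a log2 change of 0.06 (SE 0.192). The sign was not stable: the change was -0.03 in 1 of 14 other settings and up to 0.14 in the rest. The ratio of Lockd to Cdkn1b counts within a library, which no scaling factor of a library can move, was 1.49, 1.64 and 2.08 in WT, against 0.544, 0.915 and 0.377 in cKO-labelled libraries. The groups did not overlap. The ratio holds the same lower Lockd counts for which the genes were chosen, and it is no comparison of the levels of the 2 genes, whose transcript lengths were not used here.

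None of the other 4 measured genes within 50 kb of the pair passed the threshold in the RNA fit over all genes (limma, Benjamini-Hochberg adjusted p of 0.05). The orphan receptor gene Gpr19 had a log2 change of -0.04 (adjusted p = 0.98). Crebl2, which encodes a CREB-like factor, was at 0.38 (0.623), the noncoding 2810454H06Rik at 0.51 (0.626), and Apold1, on the far side of Lockd, at 0.39 (0.636). WT and cKO-labelled values overlapped for each of these 4 genes.

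**Figure D1:**
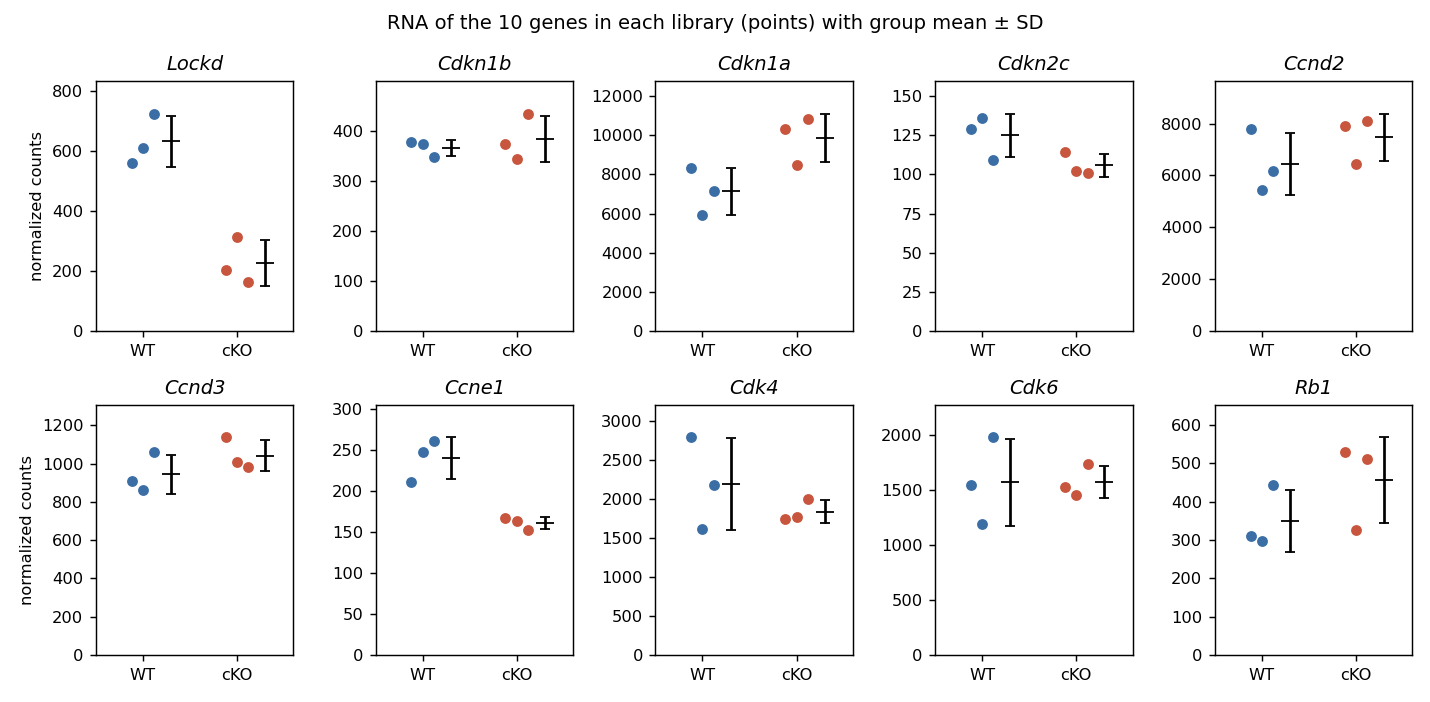
RNA of the 10 genes in normalized counts (vertical axes, each from 0) for the 3 WT and 3 cKO-labelled libraries, as points with the group mean and SD beside them. Lockd and Ccne1 are lower and Cdkn1a is higher in the cKO-labelled libraries with no overlap; the other 7 genes overlap.

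Among the CDK inhibitors, Cdkn1a was higher. It was at 8328, 5910 and 7158 in WT, against 10328, 8465 and 10808 in cKO-labelled libraries. The lowest cKO-labelled library (replicate 2) lay just above the highest WT library (replicate 1), and the log2 change was 0.47 (SE 0.15). Cdkn2c was at 129, 136 and 109 in WT, against 114, 102 and 101 in cKO-labelled libraries, with overlap and a log2 change of -0.23 (SE 0.267).

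Of the cyclins, Ccne1 was lower, at 211, 248 and 260 in WT, against 167, 163 and 152 in cKO-labelled libraries. The groups did not overlap, and the change was -0.57 on the log2 scale (SE 0.226). The D-type cyclins overlapped between groups. Ccnd2 was at 7773, 5447 and 6153 in WT, against 7894, 6428 and 8093 in cKO-labelled libraries (log2 change 0.22, SE 0.153). Ccnd3 was at 909, 864 and 1060 in WT, against 1138, 1007 and 983 in the cKO-labelled ones (log2 change 0.15, SE 0.16).

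The G1 kinases and Rb1 overlapped too. Cdk4 ran from 1610 to 2787 in WT and from 1739 to 2000 in the cKO-labelled libraries (log2 change -0.22, SE 0.187). Cdk6 ran from 1189 to 1978 and from 1457 to 1739, with a log2 change of 0.03 (SE 0.186) whose sign was negative in 2 of 14 other settings. Rb1, the brake that these kinases release, was at 312, 296 and 444 in WT, against 529, 327 and 512 in cKO-labelled libraries (log2 change 0.37, SE 0.242). For the 8 genes other than Cdkn1b and Cdk6 the sign held in all 14 settings. Filters, the variance trend and the replicate block cannot move a log2 change, and non-overlapping groups keep their sign when any library is left out.

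Counted together, 2 of the 10 genes were lower and 1 was higher with no overlap between groups. Over all 18074 genes tested the shares were 9.76% lower and 7.4% higher with no overlap, and the median log2 change was 0.06, against 0.05 over the 10. Since this comparison chose the genes, nothing is read from these counts.

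The wider pathway was taken from 7 lists that leave out the 10 genes and were chosen with earlier results of these data known. None of their 95 tested genes passed the adjusted p of 0.05 in limma, where 0.205% of all genes did. At an unadjusted p under 0.05 the lists held 8 higher and 22 lower genes, where 6.05% of all tested genes were higher and 6.05% lower. The authors' deposited table gives an adjusted p for 86 of the 95, of which 4 were higher and 8 lower at under 0.05. Of all 9263 genes with an adjusted p in the authors' deposited table, 1.78% were higher and 3.9% lower at that threshold. The list shares were not tested against these. Over all 18074 genes tested, 9935 log2 changes were positive and 8139 negative. The signs counted below were not tested against these numbers, and list members read in the same 6 libraries are not independent. None of the genes named next passed in limma.

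Genes of S phase entry that E2F drives had negative log2 changes in 20 of 20 members, with a median of -0.43 and 0 past the threshold. The smallest p belonged to the thymidylate synthase gene Tyms (from 575 ± 172 to 294 ± 27.8, log2 change -0.93, adjusted p = 0.115) and the ribonucleotide reductase gene Rrm1 (-0.76, 0.119). In the authors' deposited table both passed as lower, with adjusted p of 0.00506 and 0.00642. Other cyclins and CDKs were negative in 10 of 10 (median -0.42), among them the mitotic kinase gene Cdk1 (-0.71, adjusted p = 0.197) and cyclin A2, Ccna2 (-0.53, 0.343). Mitotic genes were negative in 9 of 10 (median -0.49), with Birc5, which encodes survivin, at -0.77 (0.0977) and the APC/C activator gene Cdc20 at -0.60 (0.274). In the authors' deposited table Cdk1 (adjusted p = 0.0329) and Birc5 (0.00309) passed as lower, as did Mcm3 (0.0143) and Mcm10 (0.0381) of S phase entry.

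p53 itself and its targets beside Cdkn1a leaned the other way, with positive log2 changes in 16 of 19 members, a median of 0.22 and 0 past the threshold. Sesn2, a stress-induced inhibitor of mTORC1 signalling, was at 799 ± 77.8 in WT and 1486 ± 325 in the cKO-labelled libraries (a log2 change of 0.87, adjusted p = 0.083). Trp53inp1, a p53 partner in the stress response, was at 0.74 (0.0896). In the authors' deposited table Sesn2 passed as higher (adjusted p = 0.00125), as did Trp53inp1 (0.00379), Mdm2 (0.0264) and Mdm4 (0.0386), while Bax, the pro-apoptotic target, passed as lower (0.037).

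Genes of p27 turnover and its FOXO activators gave 8 negative log2 changes among 14 tested, with a median of -0.06. Cks1b, the cofactor with which SCF-Skp2 marks p27 for degradation, was at 582 ± 98.7 in WT and 286 ± 17.3 in the cKO-labelled libraries (a log2 change of -1.01, adjusted p = 0.065), with no overlap. In the authors' deposited table it passed as lower (adjusted p = 0.000382). Skp1a, a core subunit of the same ligase, was at -0.46 (adjusted p = 0.225 in limma). Its other listed subunits were mixed. Skp2 itself was at 0.44 (adjusted p = 0.622), higher with no overlap, Cul1 at -0.08 (0.936) and Rbx1 at -0.44 (0.459). Pocket proteins, E2F and DREAM genes gave 12 negative changes among 19, with a median of -0.05, with Rbbp4 at -0.54 (0.225) and Mybl2 at -0.40 (0.571). Of the other CDK inhibitors 3 were tested, 2 of them positive, with Cdkn2d at 0.19 (0.787) and Cdkn1c, a low gene, at 1.68 (0.578). Under quantile normalization and trimmed mean rescaling each list median kept its sign and its numbers of positive and negative members.

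**Figure D2:**
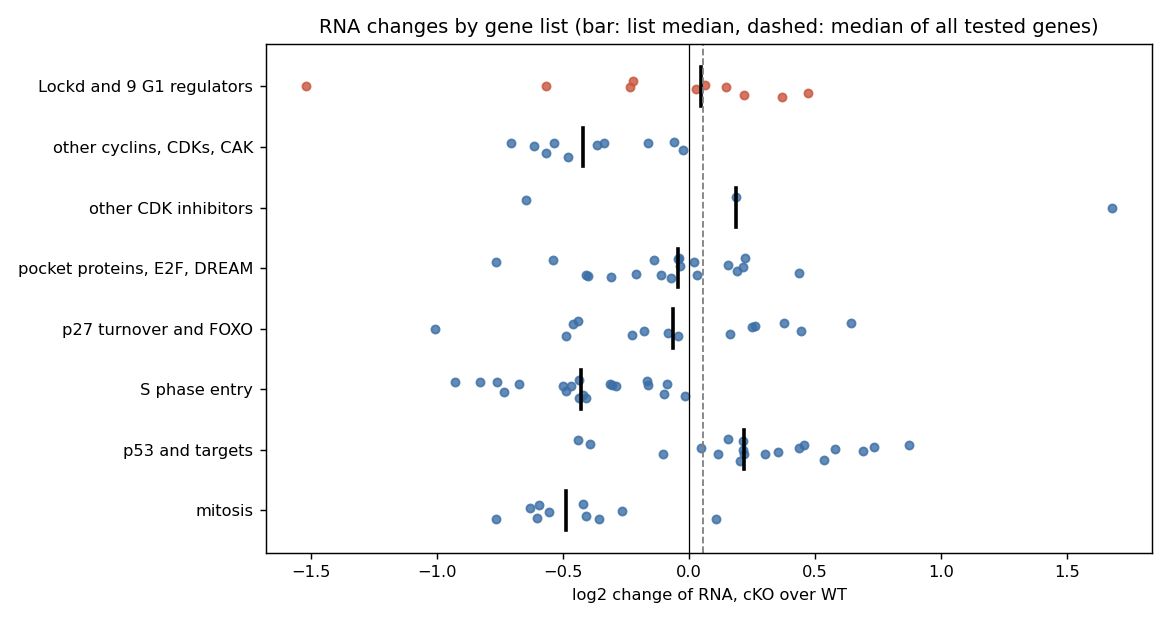
Log2 change of RNA, cKO over WT (horizontal axis), of Lockd and the 9 G1 regulators (top) and of the tested genes of 7 lists, 1 point a gene, with list medians as bars. All points of S phase entry lie below 0 and 16 of 19 genes of the p53 list above it; no list gene passed the adjusted threshold in limma.

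Lockd was lower in RNA, but the open region over its start was not called as changed. The peaks of each library were merged into regions, and a region's level was the tags of its highest peak per 10000000 tags. The region over the Lockd start (chr6:134926572-134930174) held 188, 129 and 152 tags in WT, against 172, 184 and 183 in cKO-labelled libraries. It was tested with limma after quantile normalization over the 33531 regions with a peak in all 6 libraries. The log2 change was -0.08 (SE 0.097, adjusted p = 0.618), and the groups overlapped. The sign depended on the scaling: it was 0.22 with no further scaling (adjusted p = 0.537) and 0.52 with library medians subtracted (0.00129).

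The start of Cdkn1b gave the same picture. Its region (chr6:134919396-134922228) held 150, 103 and 148 tags in WT, against 154, 133 and 141 in cKO-labelled libraries, with a log2 change of -0.12 (SE 0.094, adjusted p = 0.427). That change was 0.42 with medians subtracted (0.00875) and 0.11 with no further scaling (0.773). A smaller region upstream (chr6:134916465-134918425) held 24.9, 27.3 and 36.4 tags in WT, against 20.7, 18.6 and 8.37 in cKO-labelled libraries, which did not overlap. It did not pass after quantile normalization (SE 0.332 around a log2 change of -0.58, adjusted p = 0.28) but did with no further scaling (-0.93, 0.0406), and it was negative in all 4 scalings.

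A small region inside Lockd was listed in WT alone. It lay 3.3 kb past the Lockd start (chr6:134932380-134933328), with peaks of 15.1, 7.09 and 15.4 tags in WT and none in any cKO-labelled list. The lowest peaks listed in the cKO-labelled libraries held 5.08 to 5.7 tags, so signal under that level is not seen there. Of all 114463 regions 2.48% were listed in every WT and no cKO-labelled library, against 1 of the 72 regions within 2 kb of the 10 genes. The cKO-labelled lists were also shorter on the whole, at 54133 to 64289 peaks against 60069 to 75017 in WT, and the part of list length in this absence was not tested.

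Over the whole neighbourhood, 50 kb beyond the pair on each side, the summed tags were 827, 545 and 737 in WT, against 728, 754 and 741 in cKO-labelled libraries. The difference of 38.1 was within the spread of WT (p = 0.8 in a two-sided exact permutation test, which cannot go below 0.1), and its sign turned to -40.9 without WT replicate 2. Peaks covered 15.1 ± 1.22 kb there in WT and 10.8 ± 1.22 kb in the cKO-labelled libraries (SD, n = 3 each). The tags per kb of peak went the other way, at 46.4 ± 7.39 in WT and 69.13 ± 7.26 in the cKO-labelled libraries. Neither measure overlapped between groups, and each gave the smallest p that the exact permutation test allows, 0.1. Over the whole genome peaks also covered more in WT on average, 67253 kb against 56419 kb. There the groups overlapped, with cKO replicate 2 at 63469 kb and WT replicate 2 at 63234 kb. Tags per kb of peak over the whole genome were 51.46, 39.88 and 55.56 in WT. They were 65.93, 55.77 and 66.95 in the cKO-labelled libraries, also with no overlap, though 55.56 and 55.77 nearly touched. A shift in this direction was thus not confined to the neighbourhood. Its size there was not tested against that over the whole genome.

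**Figure D3:**
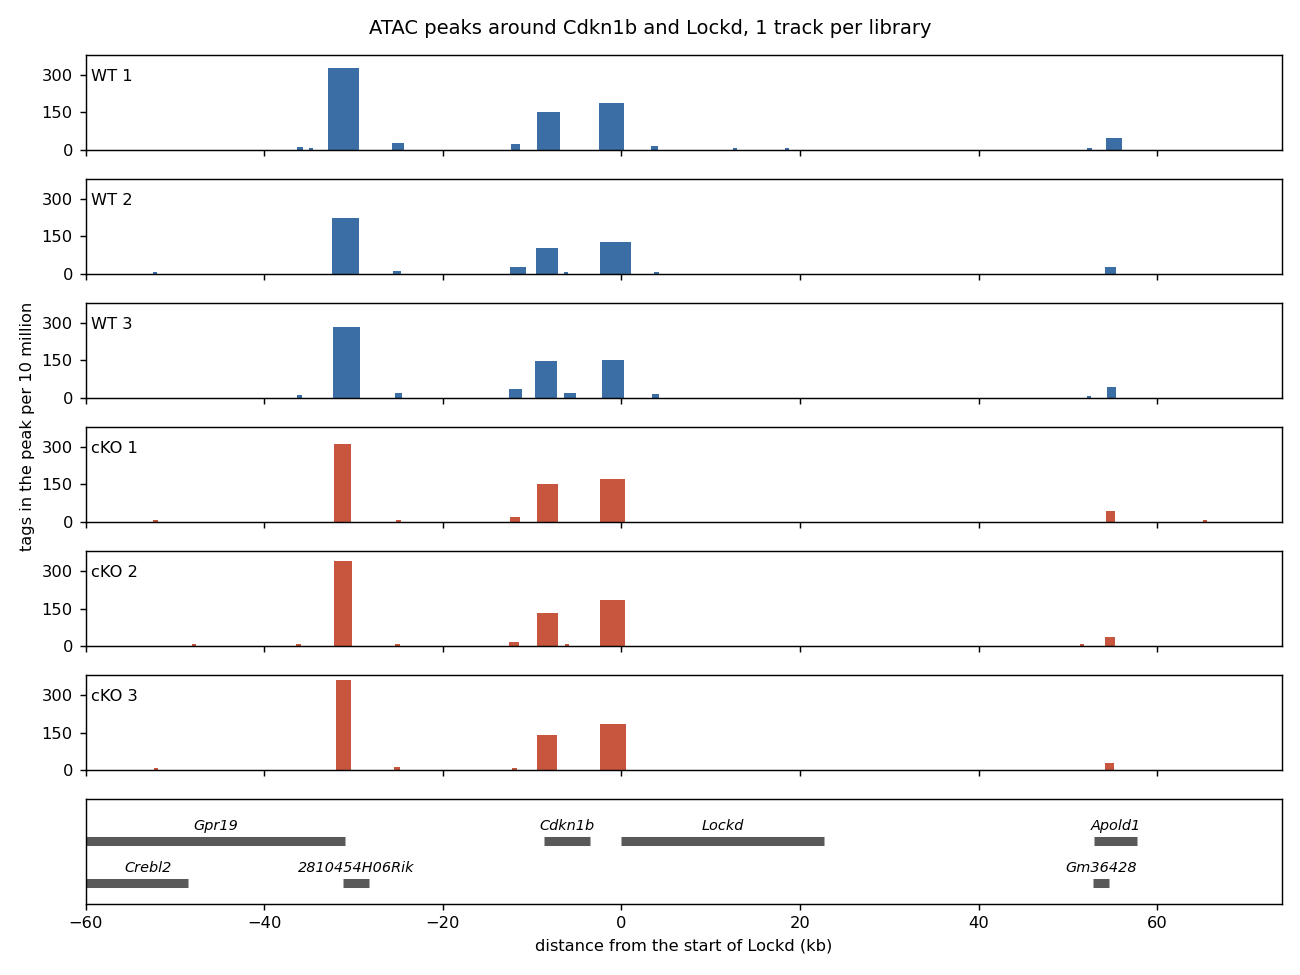
ATAC peaks by distance from the start of Lockd in kb (horizontal axis) with the tags in each peak per 10000000 (vertical axes), 1 track per library and genes at the bottom. The peaks over the starts of Cdkn1b and Lockd appear in all 6 libraries; the small peak 3.3 kb into Lockd appears in the 3 WT tracks alone.

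Of the 72 regions over the 10 genes 36 had a peak in all 6 libraries and were tested. After quantile normalization 1 was higher (2.78%) and 6 were lower (16.7%), against 3.67% and 4.33% of all tested regions. The difference between these shares was not tested, and the count fell when any cKO-labelled library was left out: 2 regions passed without cKO replicate 1, and 0 without cKO replicate 2 or 3. The direction also moved with the scaling. With library medians subtracted 15 were higher and 2 lower, with no further scaling 1 and 4, and after cyclic loess 1 and 7. Of all 33531 tested regions, 9387 were higher and 1836 lower with medians subtracted. They were 459 and 3029 with no further scaling, and 1373 and 1768 after cyclic loess. The member counts were not tested against these. Over all regions the higher calls were 45.8% of calls after quantile normalization, 83.6% with medians subtracted, 13.2% with no further scaling and 43.7% after cyclic loess. The median log2 change over all regions was 0.02, 0.16, -0.15 and 0.01 in the same order. Of the 36 regions 23 had the same sign in all 4 scalings, 9 positive and 14 negative, and 1 passed in all 4.

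That region covered the start of Cdk4 (chr10:127062746-127065181) and was higher in the cKO-labelled libraries. It held 337, 192 and 305 tags in WT, against 477, 484 and 489 in the cKO-labelled ones, with no overlap (SE 0.061 around a log2 change of 0.35, adjusted p = 0.0119). The change was 0.32 after cyclic loess, 0.84 with no further scaling and 1.14 with medians subtracted. Its peaks were shorter in the cKO-labelled libraries, at 1482 to 1837 bp against 2221 to 2352 bp, and per kb of peak the change was 0.58. The adjusted p was 0.0529, 0.0508 and 0.0588 without cKO replicates 1, 2 and 3, and 0.119 without the mean-variance trend. Cdk4 RNA, from other libraries, had overlapping groups. Just past the end of Cdk4, a region over its neighbour Tspan31 (chr10:127067927-127071264) was lower, at 116, 79.7 and 121 tags in WT, against 64.2, 86 and 76 in cKO-labelled libraries (a log2 change of -0.55, adjusted p = 0.0252). It did not pass with medians subtracted (-0.16, 0.384), with no further scaling (-0.47, 0.171) or per kb of peak, where it was at 0.14 (0.662).

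The regions over Cdk6, the largest of the genes with 26 regions of which 10 were tested, gave 3 of the lower calls, all inside the gene. The one 149.9 kb past the start (chr5:3493780-3495770) held 181, 107 and 170 tags in WT, against 127, 120 and 122 in cKO-labelled libraries (a log2 change of -0.50, adjusted p = 0.0149). The one at 156.4 kb (chr5:3500275-3505833) had no overlap, with 166, 153 and 183 against 138, 141 and 124 (-0.58, 0.0268). That at 11.2 kb (chr5:3355105-3357590) had a log2 change of -0.32 (0.0398). With medians subtracted, the regions at 149.9, 156.4 and 11.2 kb were at 0.03 (0.854), -0.0027 (0.99) and 0.40 (0.0076), so the last of them passed as higher. With no further scaling they were at -0.27, -0.31 and 0.10, none past the threshold. Per kb of peak the 3 changes were -0.40, 0.07 and -0.23, none past the threshold. The region over the Cdk6 start did not pass (-0.26, adjusted p = 0.133), but did as higher with medians subtracted (0.49, 0.000974).

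At the D-type cyclins 2 regions were called lower. The widest stretch of open chromatin over Ccnd2, at its higher-coordinate end (chr6:127147593-127156378), held 850, 559 and 804 tags in WT, against 921, 938 and 909 in cKO-labelled libraries. Its deposited tags were thus higher in each cKO-labelled library, while the quantile-normalized log2 change was -0.19 (adjusted p = 0.0262) and the change with medians subtracted 0.65 (0.00015). Its direction cannot be given. No start site was listed for Ccnd2, so this end was not placed as its start or its far end. The region over the first listed start of Ccnd3 (chr17:47503831-47509588) had a log2 change of -0.51 (adjusted p = 0.0269), which became 0.23 with medians subtracted and -0.08 with no further scaling (0.141 and 0.841). It held 335, 230 and 285 tags in WT, against 303, 282 and 218 in cKO-labelled libraries, with overlap. The second start of Ccnd3, under a region at chr17:47592818-47602091, was at -0.09 (adjusted p = 0.716). Another of the 10 tested Ccnd3 regions (chr17:47526036-47529618) held 61.9, 58.1 and 50.3 tags in WT, against 26.9, 36.9 and 25.9 in cKO-labelled libraries. The groups did not overlap. It missed the threshold after quantile normalization (-0.71, 0.0618) but was negative in all 4 scalings and passed in 3. Per kb of peak it was at -0.07 (0.818). The one at chr17:47510636-47513831 went the other way, with more tags in every cKO-labelled library (0.18, 0.253).

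Regions at the start of Ccne1 and the higher-coordinate end of Rb1 had more tags in every cKO-labelled library but did not pass after quantile normalization. The Ccne1 region (chr7:38106439-38108740) held 302, 184 and 291 tags in WT, against 394, 400 and 390 in cKO-labelled libraries (SE 0.06 around a log2 change of 0.18, adjusted p = 0.0802), while Ccne1 RNA was lower. The tallest Rb1 region (chr14:73324435-73327329) lay over the highest coordinate of the gene. No start site was listed for Rb1, so this end was not placed as its start or its far end. The region held 152, 106 and 152 tags in WT, against 216, 192 and 195 in the cKO-labelled ones (0.28, SE 0.087, adjusted p = 0.0651). Both changes were positive in all 4 scalings, and their call depended on the choice. With medians subtracted both passed, at 0.94 for Ccne1 (adjusted p = 3.1e-05) and 0.88 for Rb1 (3.5e-05), and both passed by summed tags (0.0415 and 0.0337). Per kb of peak neither passed, with Ccne1 at 0.0032 (0.991) and Rb1 at 0.56 (0.0607). The rest of the 5 tested Rb1 regions had lower means in the cKO-labelled libraries. None of them passed after quantile normalization. The one at chr14:73237630-73239707 held 46.4, 36.8 and 28.9 tags in WT, against 15.5, 24.8 and 10.3 in cKO-labelled libraries, with no overlap. It was negative in all 4 scalings and passed with medians subtracted (-0.85, 0.036) and with no further scaling (-1.16, 0.00843). One region of 10993 bp covered all of Cdkn1a (chr17:29090441-29101433), with 335, 199 and 258 tags in WT, against 280, 426 and 388 in cKO-labelled libraries (0.02, SE 0.124, adjusted p = 0.942). The Cdkn1a change was 0.48 with no further scaling (0.171) and 0.78 with medians subtracted, where it passed (0.000569). The Cdkn2c region (chr4:109664909-109667557) was at -0.18 (adjusted p = 0.352), and at 0.40 with medians subtracted (0.011). WT replicate 2, with the smallest share of tags in peaks, had fewer tags than the other WT libraries in 14 of 14 regions. These were the regions that passed, were the tallest of their gene or covered the Cdkn1b start. It did not hold for every tested region: upstream of Cdkn1b, WT replicate 1 was lowest, at 24.9 against 27.3 in WT replicate 2.

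**Figure D4:**
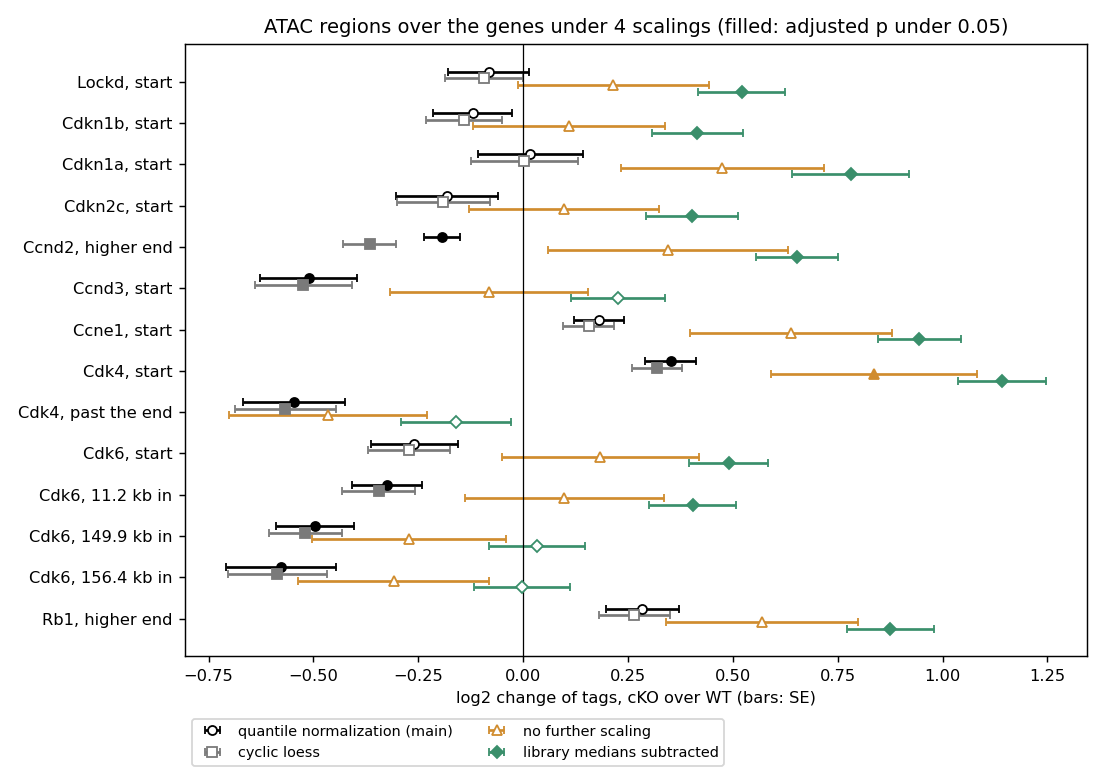
Log2 change of ATAC tags, cKO over WT, with SE (horizontal axis) at 14 regions over the genes, under 4 scalings shown by marker; filled markers passed an adjusted p of 0.05. The start of Cdk4 is filled under all 4, and markers of the starts of Lockd and Cdkn1b lie on both sides of 0.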

How the data were processed

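RNA-seq and ATAC-seq libraries of mouse Th2 cells, 3 WT and 3 cKO-labelled in each assay, were grouped by their titles. Per the submitters' processing notes, the tools were HOMER 4.11, Bowtie2 2.3.5.1, STAR, edgeR, DESeq2 and RSEM 1.3.3, with no role or order given, on mm10. Values in the deposited RNA table are the authors' normalized counts (a signal, not whole reads), so raw depth is unknown; its log2 fold change and p-value columns come from the authors. Per the file headers, peaks were called in each library with HOMER at a Poisson p-value of 0.001. The deposited peak tag count is a signal scaled to 10000000 tags, the deposited peak score is a score in tags, and the deposited clonal fold change is a ratio.

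RNA genes with a mean of at least 10 entered limma 3.58.1 (R 4.3.3) on log2(value + 1), with a mean-variance trend and Benjamini-Hochberg adjustment over all genes; fold changes understate those of low genes. Peaks sharing at least 1 bp were merged (Python 3.11.15, pandas 2.3.3, numpy 2.4.6), and regions with a peak in all 6 lists were tested likewise after quantile normalization. That scaling was chosen because earlier results of these data showed changes that went with peak height once medians were subtracted. Regions within 2 kb of a gene in the GRCm38.p6 gene table were taken as its own; exons and introns were not annotated. The fits were also run on simulated data with independent noise in each value. Such data cannot show how the fits behave when a whole library shifts. Genes and lists were chosen with earlier results of these data known. Named genes were the 10, genes within 50 kb of Cdkn1b and Lockd, Nfe2l2 and the 5 most like Lockd. From each list they were those past the threshold or up to 2 with the smallest p. Named regions were those called, the tallest of each gene and the one over the Cdkn1b start. Ddx3y, Il13, Il4, Il5, Mcm3, Mcm10, Mdm2, Mdm4, Bax, Skp2, Cul1 and Rbx1 were named after their values were seen. So were the second start of Ccnd3, further regions of Ccnd3 and Rb1, and the regions upstream of Cdkn1b and inside Lockd. Levels were not compared between genes, since transcript lengths were not used here. Alternatives were other pseudocounts, filters, scalings, variance models and peak rules, the replicate number as a block, and each library left out; for the list count and the neighbourhood sum they were chosen after seeing the data. Figures were drawn with matplotlib 3.10.9.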

Additional observations from a re-analysis of the deposited data

How the results depend on the processing

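Lockd kept its direction under every setting run, with log2 changes of -1.78 to -1.31. Its groups did not overlap, so no left-out library could turn that sign. Filters, the variance trend and the replicate block leave its log2 change as it is. The RNA count of 37 called genes became 6 without the trend, 122 with the replicate block and 526 (165 higher, 361 lower) by the authors' adjusted p, and ran from 1 to 150 with 1 library left out. The list count of 0 became 2 after quantile normalization, 3 with the replicate block and 12 by the authors' adjusted p, and ran from 0 to 2 with 1 library left out. The labels do not say that replicate numbers pair the libraries, and same-numbered libraries correlated around their group means at 0.12, 0.21 and -0.06 in RNA and at -0.03, -0.01 and 0.01 in ATAC. The replicate block left 2141 called ATAC regions and 8 over the 10 genes.

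The count of 2681 called ATAC regions became 11223 with medians subtracted, 4742 by summed tags, 833 per kb of peak and 611 without the trend, and ran from 397 to 2070 with 1 library left out. The 7 over the 10 genes became 17, 11, 1 and 0 in the same order, and 0 to 6 with 1 library left out. The neighbourhood difference ran from -40.9 to 100.0 tags with 1 library left out.

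Signs turned at these regions, and the cause was not tested. With medians subtracted the log2 change was 0.52 at the Lockd start, 0.42 at the Cdkn1b start, 0.40 at Cdkn2c, 0.65 at Ccnd2, 0.23 at Ccnd3, 0.49 at the Cdk6 start, and 0.40 and 0.0331 at 11.2 and 149.9 kb into Cdk6. With no scaling it was 0.22 at Lockd, 0.11 at Cdkn1b, 0.10 at Cdkn2c, 0.35 at Ccnd2, and 0.18 and 0.10 at the Cdk6 start and 11.2 kb. Per kb of peak it was 0.0829 at Lockd, 0.0147 at Cdkn1b, 0.0479 at Ccnd3, 0.14 past Cdk4, and 0.0199 and 0.0741 at the start and 156.4 kb of Cdk6. Cdkn1a turned to -0.11 by summed tags, and ran from -0.0906 to 0.1737 with 1 library left out, negative without WT replicate 3, cKO replicate 2 or cKO replicate 3. Raw RNA depth is unknown, which leaves the counting error of low genes such as Cdkn1c unmeasured.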

Other observations

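The genes whose RNA ran most like that of Lockd over the 6 libraries, among 10623 with a mean of at least 50, encode parts of other machineries. They were Mrpl51 of the mitochondrial ribosome (Pearson's r = 0.995), Lsm8 of the nuclear Lsm ring (0.994), the tubulin folding factor Tbcb (0.992), the RNA-binding spliceosome protein gene Zcrb1 (0.992) and Vps36 of the ESCRT-II sorting complex (0.992). Each was lower in all 3 cKO-labelled libraries than in any WT library, as Lockd was, and each had cKO replicate 2 as its highest cKO-labelled library. Both traits follow from picking genes that run like Lockd, and are no separate finding. Tbcb was at 639 ± 100.1 in WT and 277 ± 70.5 in the cKO-labelled libraries (SD, n = 3 each), a log2 change of -1.22. These r values are a description over 6 libraries that fall into 2 groups, so they hold the group difference as well as the spread within groups. Of the G1 genes, Ccne1 ran closest to Lockd (r = 0.941) and Cdkn1a most against it (r = -0.881), while Cdkn1b was at -0.591.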
